A study of Mus musculus with 2 samples.

Results

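Ccl5 encodes a small secreted chemokine, also called RANTES, that draws leukocytes carrying its receptors. In mouse CD8 T cells its transcript is scarce in naive cells and is kept at a high level in memory cells, which can secrete the protein soon after the receptor is engaged. The related chemokine genes Ccl3 and Ccl4 lie in the same cluster of genes. Ccl5 was 1 of the 31053 features of the count tables and was found by its symbol, which belonged to 1 feature, ENSMUSG00000035042. It had been picked because earlier results of these data showed a similar level but different shares of positive cells between the libraries. Its levels are therefore given as a description.

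Wild-type C57BL/6J CD8 T cells, sorted from spleen as CD3e+CD8a+ cells 1 month after transfer of total CD8 T cells, were profiled in 2 droplet-based 5′ single-cell RNA libraries. The old recipient library held CD45.2+ host cells, with hosts 24 months old at transfer and 25 months at the sort. The young donor library held CD45.1+ cells that came from mice aged 3 months and had spent that month in an old host. The labels do not give the number of animals, and it is unknown whether host and donor cells were sorted from a single animal or several. Each group had 1 library, so no test was possible, intervals cover counting error only, and library and group cannot be told apart.

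After filtering, 5341 recipient and 7451 donor cells were left, with 37698541 and 57880060 unique molecular identifiers (UMIs, each standing for 1 captured transcript molecule) and medians of 6894 and 7785 UMIs per cell. Of recipient cells 98.95%, and of donor cells 99.2%, had a Cd3e UMI, and 87.4% and 91.0% had a Cd8a UMI. The libraries shared 105 cell barcodes, of which 57 were kept in both. Levels are CPM, the usual counts scaled to the UMI total of the summed cells.

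On the GRCm38 (mm10) build with GENCODE M21, Ccl5 lies on the minus strand of chromosome 11 at 83525778 to 83530518. It is annotated with a protein-coding transcript of 3 exons and a retained-intron transcript of 2 exons, and no annotated gene overlaps it. The nearest protein-coding neighbour in the annotation, Heatr9, is 3603 bases away and had 0.955 CPM in recipient and 1.42 CPM in donor cells. Taf15, 19035 bases away, had 78.9 CPM in both libraries. The chemokine neighbours Ccl9, Ccl3 and Ccl4 lie 42401, 117326 and 132066 bases away.

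Summed over cells, Ccl5 was almost equally abundant in the 2 libraries, but the cells that carried it differed in number and in load. Old recipient cells held 298644 Ccl5 UMIs, which was 7922 CPM (95% exact Poisson interval 7894 to 7950). Young donor cells held 454775 Ccl5 UMIs, which was 7857 CPM (7834 to 7880). The log2 ratio of recipient over donor was 0.012 (0.0052 to 0.018), and its sign changed with the scaling: it was -0.036 with TMM factors and -0.019 with totals that left out Ccl5, ribosomal protein and mitochondrial genes. Ccl5 alone took 0.792% of all recipient UMIs and 0.786% of all donor UMIs.

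The median cell was far apart between the libraries at 3 Ccl5 UMIs in recipient and 49 in donor cells, while the means were 55.9 and 61.0 UMIs per cell. Among cells with at least 10 Ccl5 UMIs the order turned round, with a mean of 121 and a median of 103 in recipient cells against a mean of 89.5 and a median of 79 in donor cells. The quartiles of these cells were 61 and 158 in the recipient and 47 and 117 in the donor. The 10% of cells with the most Ccl5 held 45.15% of the Ccl5 UMIs of the recipient and 32.8% of those of the donor. The largest share of a single cell was 17.1% of all its UMIs among recipient cells and 12.8% among donor cells.

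Ccl5 per cell was bimodal in both libraries, with a heap at 0 to 3 UMIs, few cells at 4 to 9 and a broad upper mode. In the recipient, 1755 cells (32.9%) had 0 UMIs, 962 (18.0%) had 1 to 3, 185 (3.46%) had 4 to 9, 1170 (21.9%) had 10 to 99 and 1269 (23.8%) had 100 or more. In the donor, 1535 cells (20.6%) had 0 UMIs, 604 (8.11%) had 1 to 3, 257 (3.45%) had 4 to 9, 3306 (44.4%) had 10 to 99 and 1749 (23.5%) had 100 or more. The donor thus had the larger share in the bin of 10 to 99 UMIs and the recipient in the bins of 0 and of 1 to 3. The exact binomial intervals of the bin of 100 or more overlapped, with 22.6% to 24.9% for the recipient against 22.5% to 24.5% for the donor. The thresholds cut through sparse ranges at the low end: 87 recipient cells had exactly 3 UMIs and 55 had 4, and 26 had 9 and 15 had 10. In the donor, 73 cells had exactly 3 UMIs and 53 had 4, and 37 had 9 and 40 had 10.

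**Figure D1:**
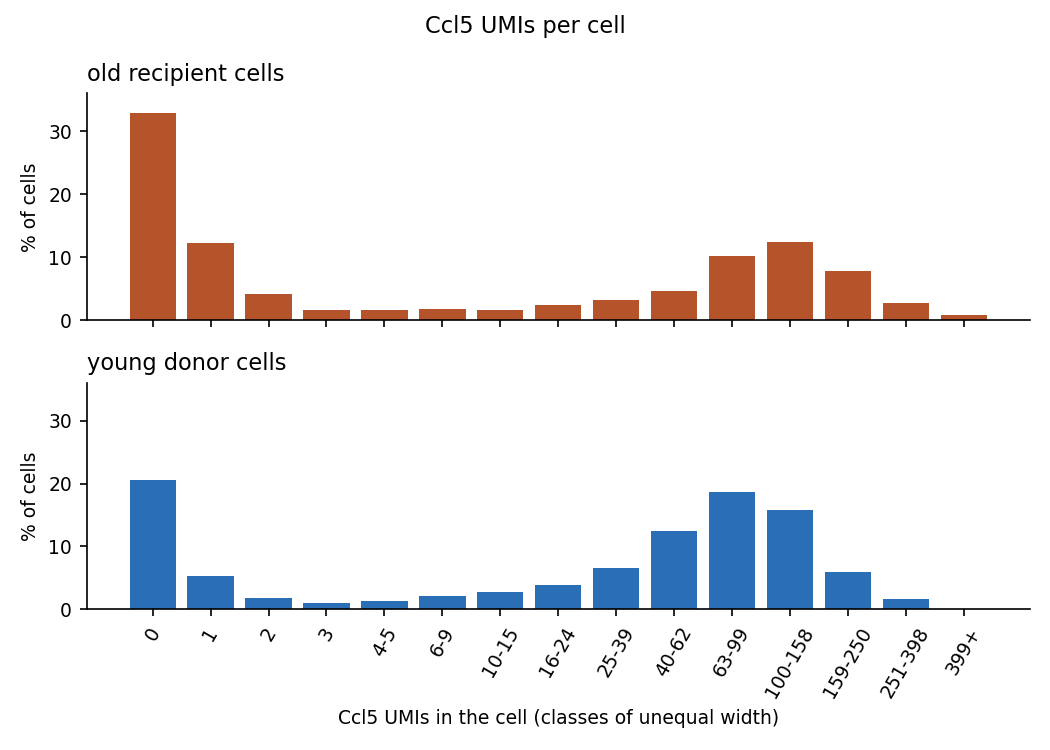
Distribution of Ccl5 UMIs per cell in old recipient cells (upper panel) and young donor cells (lower panel), as percent of the cells of the library in classes of unequal width. Both libraries have a heap at 0 to 3 UMIs and an upper mode, and the tallest class above 9 UMIs is 100 to 158 in the recipient (12.5% of cells) and 63 to 99 in the donor (18.7%).

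Nearly all Ccl5 UMIs came from the upper mode. The bin of 100 or more held 77.1% of the Ccl5 UMIs of the recipient and 59.0% of those of the donor, and the bin of 10 to 99 held 22.1% and 40.5%. The bins of 1 to 3 and of 4 to 9 made up 18.0% and 3.46% of recipient cells and 8.11% and 3.45% of donor cells, yet held 0.453% and 0.369% of recipient and 0.194% and 0.361% of donor Ccl5 UMIs. Within the bin of 100 or more, Ccl5 stood at 31721 CPM in recipient and 21692 CPM in donor cells, a log2 ratio of 0.55 (0.54 to 0.56). Within the bin of 10 to 99 it stood at 8200 CPM and 7049 CPM, a log2 ratio of 0.22 (0.21 to 0.23). In Ccl5 UMIs per cell the libraries were closer. The means were 181 in recipient and 153 in donor cells with 100 or more, and 56.4 and 55.7 with 10 to 99. In the bins of 1 to 3 and of 4 to 9 UMIs the intervals of the log2 ratio held 0 (-0.083 to 0.16, and -0.14 to 0.079).

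Depth moved with the bins. The median of all UMIs per cell was 7474 in recipient and 7871 in donor cells with 0 Ccl5 UMIs. It was 6657.5 and 7908 in cells with 10 to 99, and 5022 and 6558 in cells with 100 or more. Ccl5 took a median of 3.33% of the UMIs of a recipient cell and 2.20% of those of a donor cell in the bin of 100 or more. The part of depth in the ratios within the bins of 10 to 99 and of 100 or more was not tested. A bin set by the share of a cell's UMIs instead, at 1% or more, held 33.1% of recipient and 34.6% of donor cells.

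**Figure D2:**
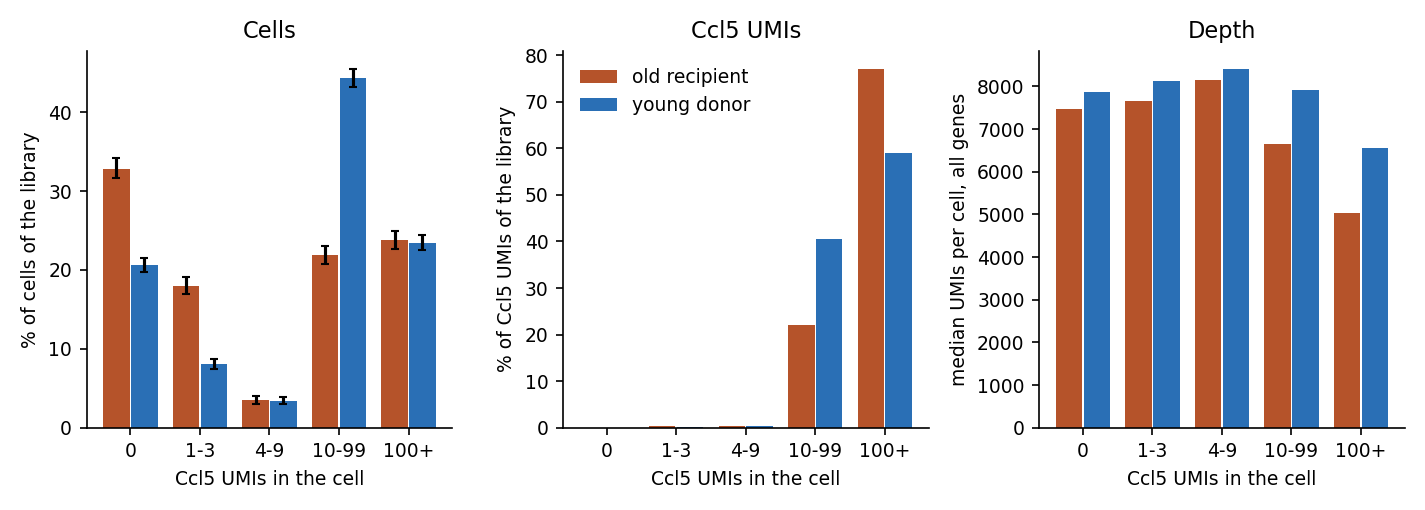
Share of cells (left, with exact 95% binomial intervals), share of the library's Ccl5 UMIs (middle) and median UMIs of all genes per cell (right) by the number of Ccl5 UMIs in the cell, for old recipient and young donor cells. The bin of 10 to 99 UMIs holds 21.9% of recipient and 44.4% of donor cells, the bin of 100 or more holds near-equal shares of cells, and depth is lowest in that bin in both libraries.

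The similar library levels were the product of bin shares and of bin levels in CPM that differed in opposite directions. With the bin shares of the recipient and the bin levels of the donor, the level would be 6288 CPM, below either library. With the bin shares of the donor and the bin levels of the recipient it would be 9873 CPM, above either library. On the same footing the mean would be 49.1 and 67.9 Ccl5 UMIs per cell.

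The share of cells with a Ccl5 UMI was lower in the recipient at every depth compared. With each cell thinned to 3500 UMIs it was 56.1% (54.6 to 57.5) of 4843 recipient cells and 74.7% (73.6 to 75.7) of 6989 donor cells. This left out 498 and 462 shallower cells. They took in most of the effector memory-like cluster, where the medians were 3337 and 3386 UMIs and nearly all cells had at least 10 Ccl5 UMIs. Thinned to 1000 UMIs, with 10 and 0 cells left out, the share was 50.7% and 70.0%. Without thinning it was 67.1% and 79.4%. In naive-like cells, which should hold little Ccl5, it was 21.8% in recipient and 20.96% in donor cells after thinning, and 37.8% and 31.0% without thinning at medians of 7628 and 8110 UMIs. The order turned round for high loads: 50 or more Ccl5 UMIs were left after thinning in 23.8% (22.6 to 25.0) of cells from the recipient, against 19.5% (18.6 to 20.4) of cells from the donor.

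Low counts in naive-like cells were compared with those of other genes, since free RNA can give UMIs in cells that do not express a gene. Naive-like cells with at most 9 Ccl5 UMIs, of which there were 1596 from the recipient and 1038 from the donor, had 85.4 CPM and 75.3 CPM, which was 1.08% and 0.959% of the level of the whole library. S100a6, with 230 recipient and 207 donor UMIs, was at 3.99% and 3.85%, above the share of Ccl5 with its 1053 and 640 UMIs. The other values were 0.782% and 0.909% for Ccl4, 1.97% and 2.58% for Gzmm, 1.07% and 3.50% for Klrc1, and 1.78% and 7.43% for Gzma. They rest on few UMIs: 11 and 5 for Ccl4, 9 and 22 for Gzmm, 5 and 9 for Klrc1, and 11 and 7 for Gzma. Gzmk, with 11 recipient and 0 donor UMIs, was at 0.468% of the library level in the recipient. The variance of Ccl5 UMIs over their mean in these cells was 2.55 in the recipient and 3.78 in the donor, where counts drawn from 1 common level in cells of equal depth would give 1. Naive-like cells made up 53.2% of the recipient's bin of 1 to 3 UMIs and 36.9% of the donor's.

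The cells were grouped by all other informative genes with Ccl5 left out, and Ccl5 then differed over more than 100-fold between the resulting 17 clusters. Old recipient and young donor cells kept a similar order of clusters. The highest levels were in 3 clusters. The cluster led by Ccl3, Ccl4, Lag3 and Penk had age-associated-like markers (Gzmk, Pdcd1, Tox, Lag3, Tigit) and stood at 45185 CPM in recipient and 33562 CPM in donor cells. The effector memory-like cluster led by Gzma, Zeb2 and Cx3cr1 stood at 37235 CPM in recipient and 33593 CPM in donor cells. The age-associated-like cluster led by Gzmk and Tigit stood at 34370 CPM and 31576 CPM.

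Below them came clusters of intermediate level. The NK-like cluster led by Fcer1g and Klra7 had 15652 CPM in recipient and 12933 CPM in donor cells, and the cluster led by S100a4 and Nrp1 had 13369 CPM and 15237 CPM. The cluster led by Gzmm and S1pr5 had 9587 CPM and 9290 CPM, that led by Nacc2 had 6942 CPM and 7003 CPM, and that led by Ly6c2 had 3899 CPM and 5112 CPM. The interferon-stimulated-like cluster led by Ifit1 and Isg15 had 6419 CPM and 7677 CPM, and it mixed cells with and without Ccl5, with medians of 1 and 50 UMIs. The cycling-like cluster led by Hist1h2ap and Pclaf had 4265 CPM in recipient and 3099 CPM in donor cells, and that led by Ccnb2 had 4782 CPM and 3168 CPM, from 44 and 60 cells and from 19 and 44 cells.

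Clusters with few positive cells came last. The cluster led by Myb and Izumo1r had 1049 CPM in recipient and 1135 CPM in donor cells, and the immediate-early-like cluster led by Nr4a1 and Egr1 had 909 CPM and 1671 CPM. The cluster led by Themis2 had 272 CPM and 478 CPM, and the naive-like cluster led by Igfbp4 had 201 CPM and 264 CPM. In the recipient order, the only neighbours whose counting intervals overlapped were the cluster led by Ifit1 and a small cluster led by Cst3 (23 recipient cells, 5851 CPM). In the donor order, overlapping neighbours were the 2 highest clusters, the 2 cycling-like clusters, and the clusters led by Ly6c2 and by Cst3 (28 donor cells, 4805 CPM).

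Between libraries, recipient over donor log2 ratios within clusters were 0.43 (0.41 to 0.45) in the cluster led by Ccl3, 0.15 (0.12 to 0.18) in the effector memory-like cluster and 0.12 (0.11 to 0.13) in the cluster led by Gzmk. The cluster led by Gzmm was at 0.045 (0.026 to 0.065) and that led by Nacc2 at -0.013 (-0.055 to 0.029). The cluster led by Ly6c2 and the naive-like cluster were each at -0.39, with intervals of -0.42 to -0.36 and -0.47 to -0.31. The level was thus higher in the recipient in the 3 clusters where it was highest and lower in the recipient in each of the 4 low clusters led by Myb, Nr4a1, Themis2 and Igfbp4.

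**Figure D3:**
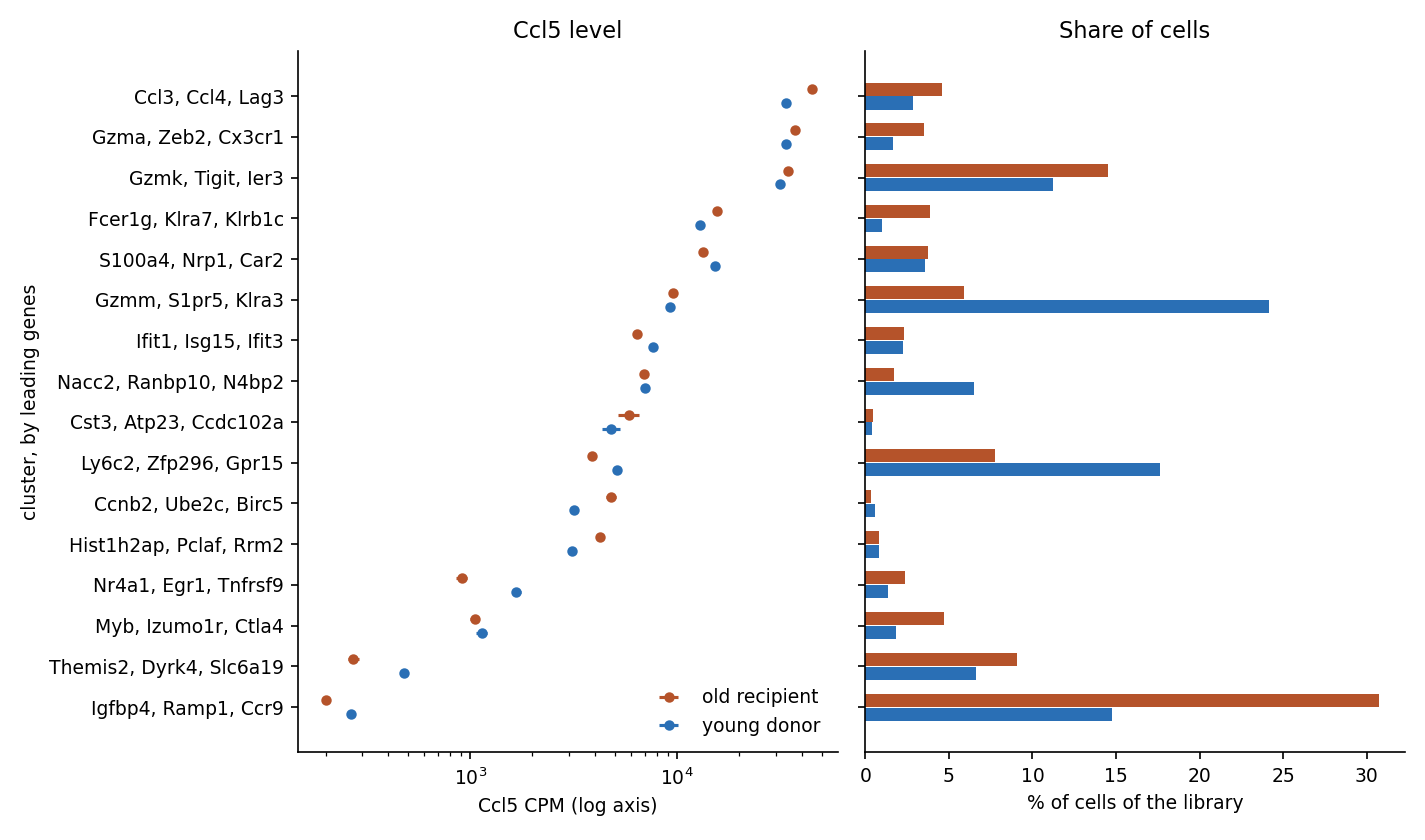
Ccl5 level in CPM on a log axis with 95% exact Poisson intervals (left) and share of the cells of the library (right) for 16 of 17 clusters, named by their leading genes, in old recipient and young donor cells. The clusters led by Ccl3, Gzma and Gzmk have the highest levels in both libraries, from 31576 to 45185 CPM, while the cluster led by Gzmm holds 5.88% of recipient and 24.2% of donor cells.

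The same level was reached from different clusters. The age-associated-like and effector memory-like clusters accounted for 22.6% of the recipient's cells and 66.6% of its Ccl5 UMIs, against 15.7% and 37.4% in the donor. The clusters led by Gzmm, Ly6c2 and Nacc2 accounted for 15.4% of the recipient's cells and 14.9% of its Ccl5 UMIs, against 48.3% and 50.7% in the donor. In the bin of 100 or more, the age-associated-like and effector memory-like clusters supplied 71.2% of recipient and 47.7% of donor cells, and the clusters led by Gzmm, Ly6c2 and Nacc2 supplied 10.1% and 41.6%. In the bin of 10 to 99, the second of these sets supplied 44.6% of recipient and 74.8% of donor cells. In the bin of 0, the clusters outside both sets supplied 97.2% and 91.4%.

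Depth differed between the 2 sets of clusters but little between libraries within them. Median UMIs were 4236 in recipient and 4293 in donor cells of the age-associated-like and effector memory-like clusters, and 8605 and 8509 in the clusters led by Gzmm, Ly6c2 and Nacc2. With the cluster shares of the donor, recipient levels gave 8122 CPM, and with the cluster shares of the recipient, donor levels gave 7186 CPM.

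Gzmk, a granzyme gene of the age-associated-like cells, marked the same division without clusters. Cells with at least 2 Gzmk UMIs formed 20.2% of the recipient's cells and held 62.4% of its Ccl5 UMIs, at 33850 CPM, against 15.4% and 36.4% in the donor, at 28951 CPM. Cells with 0 Gzmk UMIs had a median of 1 Ccl5 UMI and 2992 CPM in the recipient, against a median of 32 and 5258 CPM in the donor. Of these cells, 8.44% in the recipient and 14.0% in the donor still had 100 or more Ccl5 UMIs.

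Other genes were then followed along the Ccl5 bins, as CPM of all UMIs without Ccl5. Log2 ratios were taken after 5 CPM was added, which understates the change of low genes, and a gene was compared when it reached 50 CPM in one of the bins in either library and 100 UMIs in all. Between cells with 100 or more and cells with 0 Ccl5 UMIs, 118 of 2594 genes were at least 2-fold higher in both libraries (4.55%) and 28 at least 2-fold lower in both (1.08%). In single libraries, 7.86% of genes in the recipient and 4.7% in the donor were higher by that measure, and 1.62% and 1.31% were lower. The median over all compared genes was 0.30 in the recipient and 0.15 in the donor. Because the bins come from the same cells in each library, these ratios describe which cells carry Ccl5. A gene that met the minimum only through the bin where it was high had to differ, so the counts for gene lists are descriptions as well.

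The largest steps did not lie at the detection of Ccl5 but above 3 UMIs. Between the bins of 1 to 3 and of 0 UMIs, 0 of 2098 genes passed 2-fold in both libraries in either direction (0%). Between 4 to 9 and 1 to 3 UMIs, 2 genes were higher (0.092%), Ccl4 and Xcl1, which encodes another chemokine of CD8 T cells. Between 10 to 99 and 4 to 9 UMIs, 15 genes were higher (0.654%), among them Gzmk, Gzmm, Klrk1, S100a6 and Id2, and 3 were lower (0.131%), Igfbp4, Dapl1 and Ramp1. Between 100 or more and 10 to 99 UMIs, 29 were higher (1.13%) and 2 lower (0.0779%) in both libraries, and 1.99% of genes in the recipient and 1.33% in the donor were higher in single libraries. Of the 118 genes that were higher in the bin of 100 or more, 84 in the recipient and 81 in the donor increased at every step.

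Receptor genes for Ccl5 were looked up in all kept cells, and those given here were at or near 0. Ccr3 had 17 recipient and 25 donor UMIs, Ccr1 had 0 and 1, and the atypical receptors Ackr1 and Ackr2 had 0 in both, which allows at most 0.0796 CPM in recipient and 0.0518 CPM in donor cells for a count of 0.

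Of 9 other T cell chemokine genes on the list, 3 could be compared, and they were at least 2-fold higher in the bin of 100 or more in both libraries. These 3 met the minimum only through that bin. Among all compared genes, 4.55% were higher by this measure. Ccl4 was at 480 CPM against 15.7 CPM in recipient and at 192 CPM against 1.23 CPM in donor cells, with the bin of 100 or more given before the bin of 0. Ccl3 was at 170 CPM against 1.79 CPM in recipient and at 57.3 CPM against 0.082 CPM in donor cells, the last from a single UMI. Xcl1 had another course: in the recipient it stood at 94.4 CPM with 100 or more UMIs, below its 119 CPM with 10 to 99 UMIs, while in the donor it stood at 117 CPM and 97.4 CPM. Over all kept cells, the neighbours Ccl6 and Ccl9 were under 1 CPM in both libraries. In the bin of 100 or more, Ccl9 had 1.99 CPM in recipient and 2.56 CPM in donor cells. Ccl6 had 1.57 CPM and 0.744 CPM there.

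Granule genes went with Ccl5, 7 of the 9 that could be compared being at least 2-fold higher in both libraries. Among all compared genes, 4.55% were. Of the 7 granule genes, Gzma, Gzmb, Gzmk, Gzmm and Prf1 met the minimum only through the bin where they were high. Gzmk stood at 820 CPM in recipient and 384 CPM in donor cells of the bin of 100 or more, against 1.34 CPM and 3.36 CPM in the bin of 0. Gzmm, a granzyme gene of memory CD8 T cells, stood at 96.1 CPM and 170 CPM in the bin of 100 or more, against 1.42 CPM and 4.59 CPM in the bin of 0. Prf1, the gene of perforin, had 134 CPM and 99.7 CPM against 29.1 CPM and 30.1 CPM. Nkg7, a granule membrane protein gene, had 3512 CPM and 2560 CPM against 753 CPM and 798 CPM. Ctla2a, which encodes an inhibitor of cysteine proteases and was on no list, had 509 CPM and 365 CPM against 10.4 CPM and 21.9 CPM. Srgn, whose protein is the core of the granule proteoglycan that can hold chemokines, had log2 ratios of 0.82 in the recipient and 0.39 in the donor and did not pass 2-fold.

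The median log2 ratio of the granule list was 2.21 in the recipient and 1.68 in the donor, against 0.30 and 0.15 over all compared genes. For the list of virtual and central memory genes, 9 of 12 passed 2-fold higher in both libraries, with medians of 2.36 and 1.84. Of these 9, Il18rap, Ifitm10, Cd44, Samd3 and Plek met the minimum only through the bin where they were high. The share of all compared genes that passed higher was 4.55%. Il2rb, the shared receptor chain for interleukins 2 and 15, had 442 CPM in recipient and 453 CPM in donor cells of the highest bin, against 83.4 CPM and 107 CPM in the bin of 0. Ly6c2, a surface marker of memory cells, peaked below the highest bin, with 1579 CPM in recipient and 1856 CPM in donor cells at 10 to 99 UMIs and 955 CPM and 1413 CPM at 100 or more. Il7r, Ms4a4c and Ly6a were the 3 that did not pass.

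All 8 effector genes that could be compared, of 10 on the list, were at least 2-fold higher in both libraries. So were all 5 inhibitory receptor genes that could be compared, of 7 in the files. Over all compared genes this share was 4.55%. These 5 and Klrg1, Cx3cr1, S100a4, Ccr2 and Anxa2 met the minimum only through the bin where they were high. Ctla4 and Havcr2 missed it. Ctla4 had 28.8 CPM in recipient and 12.1 CPM in donor cells of the highest bin, against 20.1 CPM and 27.3 CPM at 0. Havcr2 had 8.68 CPM and 1.49 CPM against 0 CPM and 0.082 CPM. S100a6, a calcium-binding protein gene, had 1322 CPM in recipient and 1209 CPM in donor cells of the highest bin, against 58.4 CPM and 51.3 CPM in the bin of 0. Itga4, an integrin chain, had 423 CPM and 225 CPM against 68.3 CPM and 70.0 CPM. Among the inhibitory receptor genes, Tigit had 169 CPM and 73.9 CPM against 1.42 CPM and 1.80 CPM, and Pdcd1, the gene of PD-1, had 65.8 CPM and 27.1 CPM against 1.86 CPM and 2.54 CPM. The medians of the inhibitory list were 3.25 in the recipient and 1.70 in the donor.

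NK receptor genes passed 2-fold higher in both libraries for 4 of the 5 that could be compared, of 13 on the list. These 4 met the minimum only through the bin where they were high. The share over all compared genes was 4.55%. Klrk1, the gene of the activating receptor NKG2D, had 208 CPM in recipient and 104 CPM in donor cells of the highest bin, against 0.969 CPM and 1.48 CPM in the bin of 0. Klrc1, which encodes NKG2A, had 130 CPM and 92.6 CPM against 1.57 CPM and 0.902 CPM. Klrd1, which encodes the CD94 partner of NKG2A, was already at 174 CPM and 156 CPM in cells without Ccl5 and reached 299 CPM and 261 CPM, with log2 ratios of 0.76 and 0.72.

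Genes of naive cells were lower where Ccl5 was high, 6 of the 11 that could be compared passing 2-fold in both libraries. The share of all compared genes that were lower was 1.08%. Of the 6 naive genes, Igfbp4 and Itgae met the minimum only through the bin of 0, where they were high. Igfbp4, an insulin-like growth factor binding protein gene, had 14.7 CPM in recipient and 4.96 CPM in donor cells of the highest bin, against 598 CPM and 445 CPM in the bin of 0. Ccr7, the receptor gene for homing to lymphoid tissue, had 59.4 CPM and 116 CPM against 439 CPM and 425 CPM. Dapl1 had 32.03 CPM and 95.0 CPM against 338 CPM and 538 CPM. The other genes with the lowest ratios were Ramp1, Rgcc, Itgae, Actn2, Tgtp1, Slpi, Actn1, Plac8 and Rflnb, between -3.31 and -1.45.

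Of 16 regulator genes that could be compared, Tbx21, Eomes and Id2 passed 2-fold higher in both libraries and Lef1 passed lower. Over all compared genes, 4.55% passed higher and 1.08% lower. Tbx21 and Eomes met the minimum only through the bin where they were high. Tbx21, which encodes T-bet, had 99.8 CPM in recipient and 102 CPM in donor cells of the highest bin, against 5.89 CPM and 13.3 CPM in the bin of 0. Eomes, which encodes the related factor eomesodermin, had 217 CPM and 158 CPM against 17.8 CPM and 23.8 CPM. Klf13, known in human T cells as a factor that binds the CCL5 promoter late after activation, ran the other way, with 84.5 CPM and 89.6 CPM against 128 CPM and 126 CPM and log2 ratios of -0.57 and -0.46. Runx3, a factor of the CD8 lineage, had log2 ratios of 0.74 and 0.62. None of 8 translation factor genes (0 of 8) passed 2-fold in either direction, with a list median of -0.34 in the recipient and -0.15 in the donor. Such a count is near the shares of 4.55% and 1.08% over all compared genes.

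**Figure D4:**
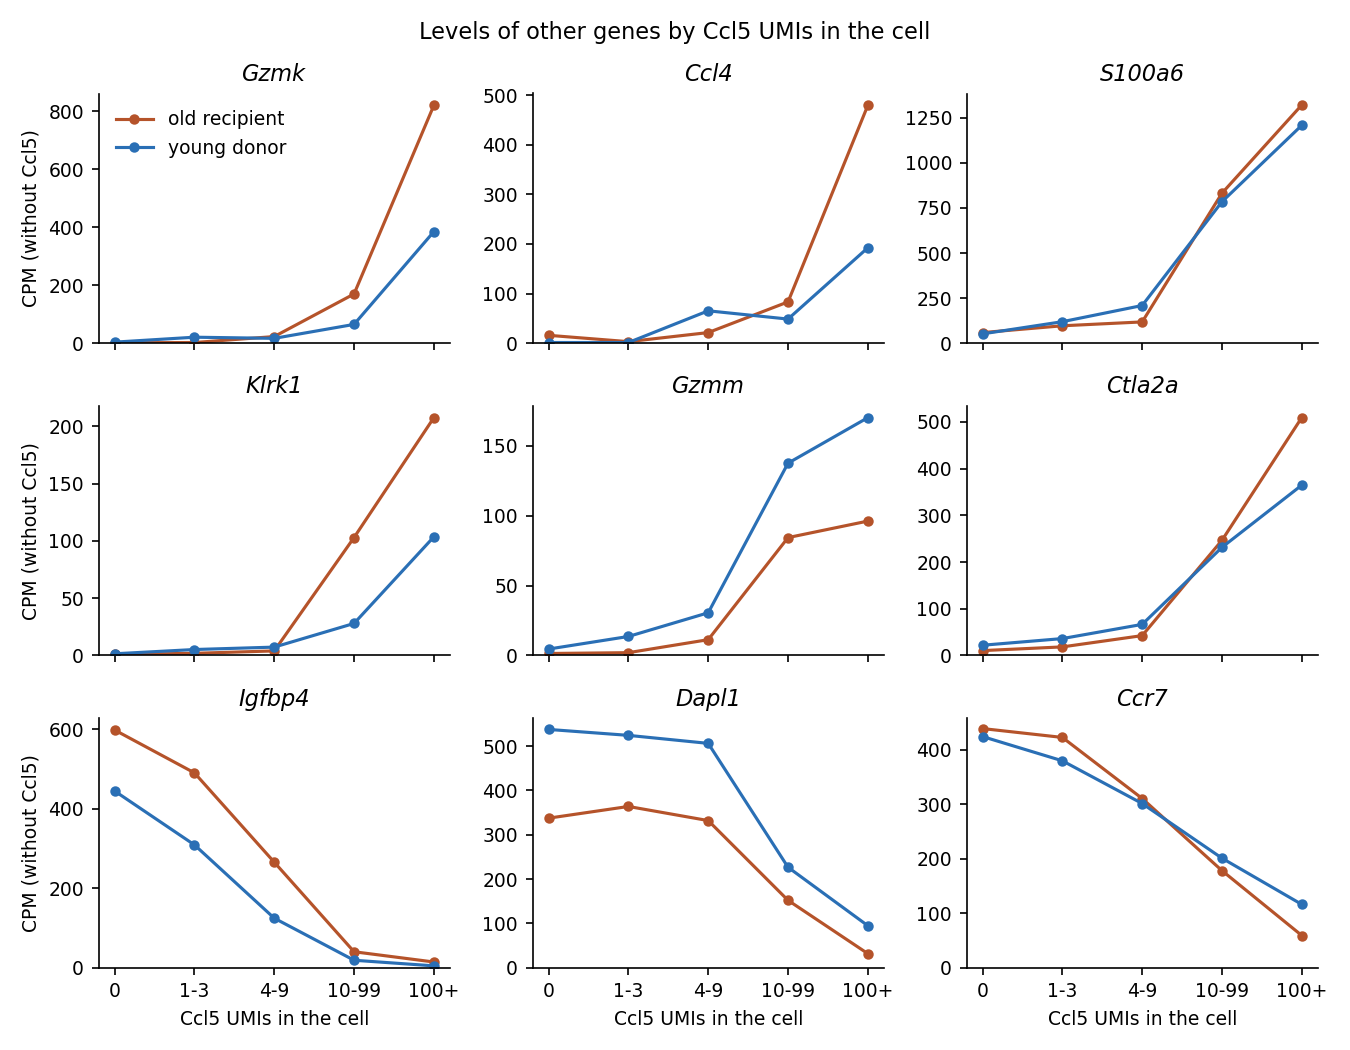
Levels of 9 other genes, as CPM of all UMIs without Ccl5, by the number of Ccl5 UMIs in the cell, in old recipient and young donor cells. Gzmk, Ccl4, S100a6, Klrk1, Gzmm and Ctla2a are highest in the bin of 100 or more UMIs in both libraries, and Igfbp4, Dapl1 and Ccr7 are lowest there.

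Within the upper mode, the genes with the highest ratios between 100 or more and 10 to 99 UMIs were Ccl3, Gzmk, Klrg1, Tigit, Ccl4 and Gzmb. Klrg1, a receptor gene of effector cells, had 76.7 CPM in recipient and 29.4 CPM in donor cells with 100 or more UMIs, against 14.0 CPM and 2.78 CPM with 10 to 99. Gzmb had 119 CPM and 51.5 CPM against 29.4 CPM and 7.29 CPM. Ccl3 was highest on this scale with log2 ratios of 2.91 in the recipient and 2.77 in the donor, followed by Gzmk at 2.24 and 2.49. The 2 lower genes were Dapl1 at -2.09 and -1.21 and Plac8 at -1.64 and -1.01.

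Markers of other cell types were summed in each bin. The 5 myeloid markers summed to 130 CPM in recipient and 110 CPM in donor cells of the highest bin, against 91.5 CPM and 89.2 CPM in the bin of 0, nearly all of it from Cst3, while Lyz2 and Csf1r stayed at or under 1.54 CPM in each bin. The 4 plasmacytoid or dendritic markers summed to 133 CPM and 121 CPM in the highest bin, against 132 CPM and 135 CPM in the bin of 0, nearly all of it from Bst2. Cd4, Ms4a1 and Siglech were at 0 or under 0.3 CPM in each bin of both libraries. Igkc, an immunoglobulin light chain gene, had 145 CPM in recipient and 75.6 CPM in donor cells of the highest bin against 0.596 CPM and 0.246 CPM in the bin of 0, and it carried most of the summed B cell markers there (158 CPM and 89.1 CPM for 5 markers, against 31.2 CPM in recipient cells of the bin of 0). The 4 gamma delta T cell markers summed to 46.3 CPM in recipient and 17.3 CPM in donor cells of the highest bin, against 2.61 CPM and 2.21 CPM in the bin of 0. Most of it came from Tcrg-C2, at 35.7 CPM and 12.2 CPM in the highest bin, where Trdc was at 2.99 CPM and 3.06 CPM. The part of these markers in the results was not tested.

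Cells with 100 or more Ccl5 UMIs were not the same in the 2 libraries. Of 2515 genes compared in this bin, 27 were at least 2-fold higher in recipient than in donor cells (1.07%) and 5 at least 2-fold lower (0.199%). Gzma, a granzyme gene of effector cells, had 199.98 CPM in recipient and 27.9 CPM in donor cells. Hist1h2ap, a histone gene, had 421 CPM and 82.4 CPM, Lag3 had 102 CPM and 30.4 CPM, and S100a4 had 173 CPM and 72.8 CPM. Fcgrt, which encodes the neonatal Fc receptor, had 35.7 CPM in recipient and 113 CPM in donor cells, Ctse had 28.0 CPM and 84.8 CPM, and Gzmm had 96.1 CPM and 170 CPM. The age-associated-like and effector memory-like clusters made up 71.2% of this bin in the recipient and 47.7% in the donor, as given above.

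To see which genes went with Ccl5 within clusters, cells of each of 3 large clusters were ranked by the share of their UMIs that was Ccl5. The tertile with the most was set against the tertile with the least. This comparison was chosen after the data had been seen, and depth went with it: in the cluster led by Gzmk, median UMIs were 4272 in the high and 4994 in the low tertile of recipient cells, and 4161 and 4893 in donor cells. In the cluster led by Gzmm, 5 of 2505 genes were at least 2-fold higher in both libraries (0.2%) and 1 lower (0.0399%). Klrk1 had log2 ratios of 2.90 in recipient and 2.53 in donor cells, Klrc1 of 2.89 and 2.19, S1pr5, a receptor gene for exit from tissue, of 2.33 and 1.58, and Id3, a regulator of memory precursors, of -1.40 and -1.32.

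In the cluster led by Ly6c2, 8 of 2152 genes were higher (0.372%) and 2 lower (0.0929%). Its high and low tertiles had medians of 70.5 and 1 Ccl5 UMIs in recipient and 83 and 4 in donor cells. There the comparison set the upper mode against low counts once more. Ctla2a had log2 ratios of 1.54 in recipient and 1.55 in donor cells, Id2 of 1.45 and 1.75, S100a6 of 1.45 and 1.64, and Igfbp4 of -1.60 and -2.40. In the cluster led by Gzmk, 7 of 2962 genes were higher (0.236%) and 9 lower (0.304%). Cx3cr1, the receptor gene for fractalkine, had 128 CPM in the high tertile against 37.1 CPM in the low tertile of recipient cells, and 96.2 CPM against 29.4 CPM in donor cells. Gzmb had 171 CPM against 58.3 CPM in recipient and 152 CPM against 23.8 CPM in donor cells. Xcl1 ran the other way, with 12.9 CPM against 167 CPM in recipient and 15.6 CPM against 143 CPM in donor cells, as did Id3, with 18.5 CPM against 132 CPM and 19.1 CPM against 158 CPM.

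**Figure D5:**
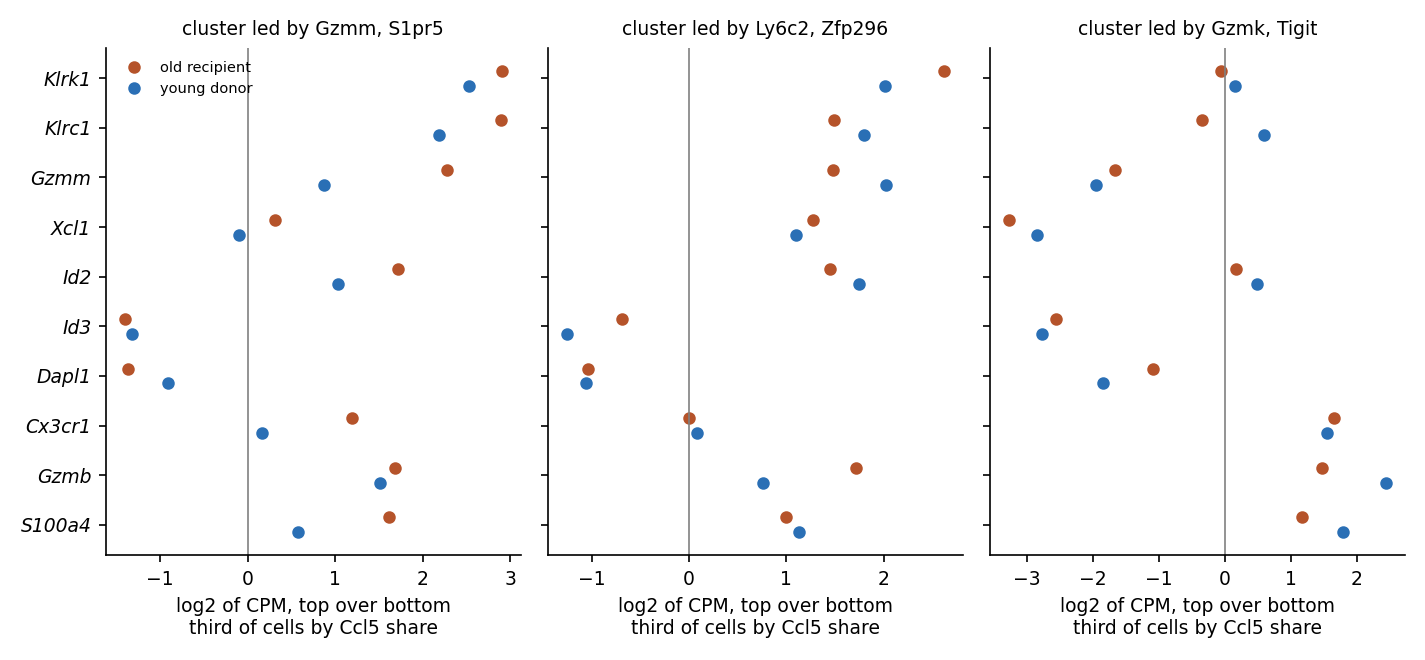
Log2 ratio of CPM between the tertile of cells with the most and the tertile with the least Ccl5 by share of UMIs, for 10 genes in the clusters led by Gzmm, Ly6c2 and Gzmk, in old recipient and young donor cells; the 3 panels have different horizontal scales. Gzmm and Xcl1 lie above 1 in the cluster led by Ly6c2 and below -1 in the cluster led by Gzmk in both libraries.

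Genes whose pattern over clusters was most like that of Ccl5 were named by Pearson's r of log2(CPM + 5) over 29 points, each a cluster of at least 50 cells in 1 library, among 3962 genes. Points of 1 library share its depth, and the clusters were made from the genes compared, so r is a description. Wdr95 and St3gal6 had the highest r at 0.94 each, then Efhd2 and Lrrk1 at 0.93 each, S100a6, Myo1f, Samd3 and Nbeal2 at 0.92 each, and Ccr2 at 0.91. Wdr95 was alike in recipient clusters alone (0.96) and in donor clusters alone (0.93). The most opposite patterns were those of Igfbp4 at -0.89 and Ramp1 at -0.87.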

How the data were processed

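The authors deposited whole UMI counts for each gene and barcode, which were not normalized. Cell Ranger, Seurat and the mm10 build are named in the submitters' processing notes, and version 3.0.2 of the counting software is given per the file headers. The annotation release and cell calling were not given in the sources used here, and receptor libraries were not used here.

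The gene, the 11 gene lists and the markers were chosen with earlier results of these data known. Of 6174 recipient and 8588 donor barcodes, 555 and 587 with fewer than 500 genes or over 10% mitochondrial UMIs were left out, then 278 and 550 doublets (the highest scores against simulated doublets, 0.8% per 1000 barcodes). Cells were clustered by Leiden at resolution 1 on 30 components of 2000 variable genes without Ccl5 (Python 3.11.15, scikit-learn 1.9.0, leidenalg 0.10.2), and 10 of 17 clusters were named from markers. Features sharing a symbol were summed, leaving 31017 symbols. Bins were 0, 1 to 3, 4 to 9, 10 to 99 and 100 or more Ccl5 UMIs. Levels have exact Poisson, shares exact binomial (Clopper-Pearson) and ratios exact conditional 95% intervals, which cover counting error only. In the recipient 1 UMI was 0.0265 CPM and in the donor 0.0173 CPM.

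With 1 library per group no test was run, and edgeR 4.0.16 gave TMM factors only. Ccl5 and its receptors were always named, with the 12 highest and 12 lowest genes between the bins of 100 or more and 0, the 6 highest and 6 lowest between 100 or more and 10 to 99, the 8 highest and 8 lowest between libraries in the bin of 100 or more, the 10 most alike over clusters, and members of the lists. Not every gene so chosen is described, and some genes are not reported here. The scripts were tested on simulated data. The alternatives were filters, doublets, scaling, thinning, bin definition, minimum counts, clustering and shared barcodes.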

Additional observations from a re-analysis of the deposited data

Results flagged for a closer look

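The tertile of cells with the most Ccl5 was set against the tertile with the least in 3 clusters, and 2 genes ran in opposite directions in 2 of them in both libraries. Gzmm was higher in the high tertile of the cluster led by Ly6c2, with log2 ratios of 1.48 in recipient and 2.02 in donor cells, and lower in the high tertile of the cluster led by Gzmk, with -1.66 and -1.95. The difference between the clusters was 3.14 in the recipient and 3.97 in the donor. Xcl1 had log2 ratios of 1.28 and 1.10 in the cluster led by Ly6c2 and of -3.26 and -2.85 in the cluster led by Gzmk, a difference of 4.54 in the recipient and 3.95 in the donor. The tertiles covered different Ccl5 levels. In the cluster led by Ly6c2, Ccl5 rose from 291 to 9226.5 CPM in recipient and from 729 to 10829 CPM in donor cells. In the cluster led by Gzmk, it rose from 18391 to 55141 CPM in recipient and from 16984 to 49381 CPM in donor cells. The ranges did not overlap, so the ratios do not compare the same step of Ccl5. With 1 library per group these differences were not tested.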

How the results depend on the processing

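Limits were the 95% counting interval of the main value, or 1.5 times the main count for counts of genes. Of 65 alternative values, 39 stayed within them, 24 moved and 2 changed sign, both of them the log2 ratio of library levels: -0.036 with TMM scaling and -0.019 with totals without Ccl5, ribosomal protein and mitochondrial genes. The cause was not tested for any value that moved. The mean Ccl5 UMIs per cell with at least 1 UMI, 83.3 in recipient and 76.9 in donor cells, was 84.4 and 77.1 with at least 1000 genes per cell, 84.7 and 77.9 with at most 5% mitochondrial UMIs, 85.2 and 78.9 with no doublets removed, and 58.4 and 41.8 with cells thinned to 3500 UMIs. With no doublets removed, 75.8% of donor cells had a Ccl5 UMI after thinning, 24.6% had 100 or more, and the log2 ratio within the bin of 100 or more was 0.54. The share with a UMI was 67.1% in recipient and 79.4% in donor cells without thinning, and 50.7% and 70.0% when thinned to 1000 UMIs. Cells at 1% or more of their UMIs were 33.1% of recipient and 34.6% of donor cells. With no minimum other than 20 UMIs, 246 genes were higher and 73 lower in the bin of 100 or more. The highest cluster level in the recipient was 44229 CPM at resolution 1.5 and 44045 CPM with genes centred within each library. Recipient levels at the cluster shares of the donor gave 8275 CPM at resolution 0.6, 8179 CPM at resolution 1.5 and 7609 CPM with that centring, below the 7857 CPM of the donor in that last case only. Leaving out barcodes found in both libraries was chosen after seeing the data. No paired analysis was possible because each group had 1 library, and no replicate could be left out. Depth limits the reading of 1 to 3 UMIs.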

Other observations

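T cell receptor beta segments were unevenly used to a varying degree along the bins. The effective number of Trbv segments is the inverse of the summed squared shares over cells. In the bin of 100 or more Ccl5 UMIs it was 14.1 in recipient and 12.5 in donor cells. In the bin of 0 it was 17.2 and 16.6. It was 16.96 and 16.2 with 1 to 3 UMIs, 14.6 and 14.7 with 4 to 9, and 15.6 and 15.9 with 10 to 99, so the recipient's bin of 4 to 9 was close to its highest bin. In the recipient, Trbv16 was the most frequent segment of the highest bin at 12.5% of 1258 cells with a segment. In the donor, Trbv12-1, Trbv17 and Trbv19 led the highest bin at 15.3%, 12.2% and 11.6% of 1734 cells. Of the donor cells with Trbv17, 54.1% were in that bin. Segments were read from the 5′ gene expression counts, not from receptor libraries, and clones were not analysed here.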
